A study of Gallus gallus with 6 samples.

Results

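Chromosome 5 of the chicken carried 2398 genomic regions where a TCF21 peak was called in all 3 chromatin immunoprecipitation (ChIP) samples of the series. They were found by taking every peak on the chromosome in the 3 peak lists, merging those of separate lists that share 1 bp or more, and keeping each merged region that all 3 lists contribute to. These are called reproducible regions below. The 5089 joined regions of chromosome 5 were reduced to this set, which made up 6.41% of the 37420 reproducible regions of the whole series. They are set against the 17381 reproducible regions of chromosomes 1 to 4, the 4 longer autosomes. The cells were chicken preadipocytes from adipose tissue, made to overexpress TCF21 stably with the construct LV-TCF21. All samples had 24 h of oleic acid at 300 µM, which drives chicken preadipocytes to differentiate. The groups were TCF21_IP, precipitated with an anti-HA antibody, and input DNA with no antibody, with 3 samples each, and both carried the same construct and the same treatment. The TCF21 protein was supplied in excess, so the lists describe an overexpressing cell and not the factor at its native level. Nothing in the labels ties the samples to separate cultures. Each SD over the lists below thus measures a spread between samples that may be technical, and each p-value rests on those same samples. A control rabbit IgG is named in the protocol and was not analysed here. No expression values were analysed, so the labelled cell type was not checked against its markers.

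TCF21 is a basic helix-loop-helix transcription factor, a class whose members dimerise and bind short DNA motifs called E-boxes. It is known for its roles in mesenchymal tissues such as the epicardium, kidney and visceral fat, and it marks precursors of white fat cells in mammals. In a ChIP experiment, DNA bound by the factor is precipitated and sequenced, and a peak is a stretch where fragments stack higher than in the control. Chromosome 5 is one of the large chromosomes of the chicken, and its centromere is known to lack the tandem repeats found at most others. By the RefSeq gene table of the GRCg7b assembly it carries DLK1, a surface protein that holds back fat cell differentiation in mammals. The same table places there BMP4, a signal that commits mesenchymal cells to the fat lineage in mammals, and the growth factor gene IGF2. The sources used here name no build for the peak lists. No region was therefore assigned to a gene, an exon, an intron or a UTR, and no sequence was read.

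Each list is named by the number in its peak names, which was not matched to a sample's replicate number. Lists 1, 2 and 3 held 59501, 55895 and 57436 peaks over the whole genome, of which 3793, 3608 and 3589 lay on chromosome 5. Pileup is the number of fragments stacked at a peak's summit, as deposited and not scaled for depth. List 1 tended to be highest: it had the highest pileup at 1306 of the 2398 regions, list 2 at 716 and list 3 at 158, the rest being ties. Sequencing depth is unknown, so pileups were compared between chromosomes within a list. Fold enrichment is the authors' value, pileup over local control with a pseudocount of 1 on both. The input level, computed as (pileup + 1) / fold enrichment − 1, is the local control level behind each peak, on the scale of fragments. It is not a count of control fragments: its values are not whole and many peaks share the same one, so its medians move in steps.

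TCF21 regions were packed more densely on chromosome 5 than on the 4 longer chromosomes. Chromosome 5 held 40.1 reproducible regions per Mb, against 31.7 on chromosomes 1 to 4 pooled. Those values rest on spans of 59.8 Mb and 548 Mb, with each span taken as the end of the chromosome's last peak. Chromosomes 1, 2, 3 and 4 had 30.8, 30.9, 34.0 and 31.98 regions per Mb, so chromosome 5 stood above each of them. Counted as peaks in single lists, chromosome 5 had 63.4, 60.4 and 60.03 peaks per Mb in lists 1, 2 and 3, against 50.9, 47.4 and 48.9 on chromosomes 1 to 4. The lowest list of chromosome 5 lay above the highest list of the longer chromosomes. Both sets of values come from the same 3 lists, so they are paired and not independent. The ratio of peak densities, chromosome 5 over chromosomes 1 to 4, was 1.25, with 1.23 to 1.27 in single lists, and it was above 1 in 3 of 3 lists. An exact two-sided sign-flip permutation test over the 3 lists gave p = 0.25, the smallest value that 3 lists allow, so no ratio of this kind can pass a threshold of 0.05 here. The ratio of region densities was 1.27, and with a list left out it was 1.26 to 1.28. It was 1.21 when the span counted only 100-kb windows that hold a peak.

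**Figure D1:**
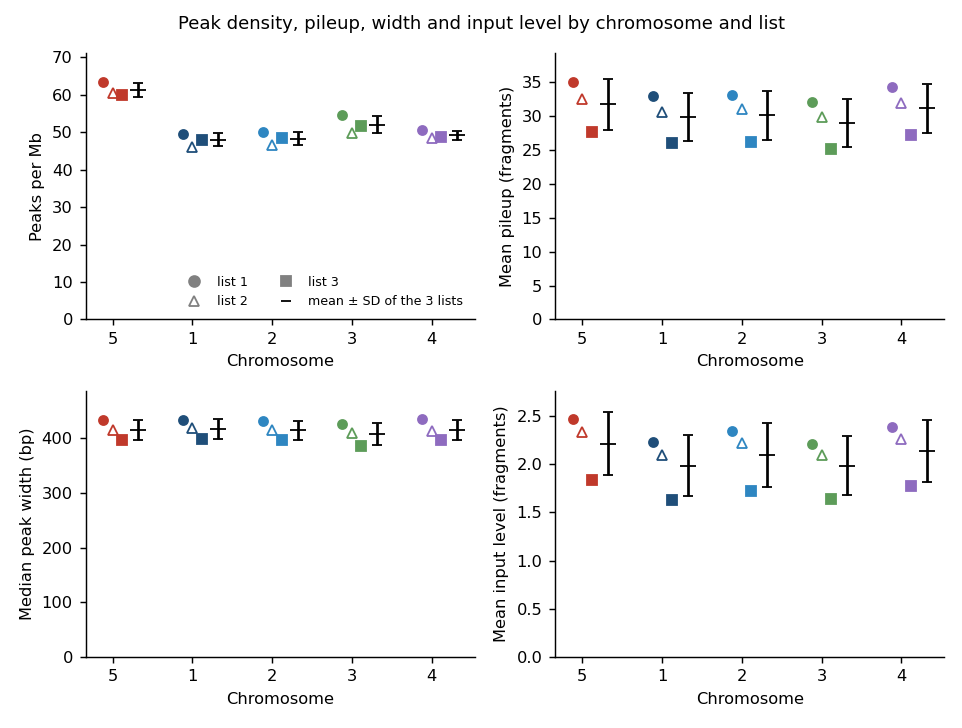
Peaks per Mb, mean pileup, median peak width and mean input level on chromosomes 5, 1, 2, 3 and 4, with a symbol per list and the mean ± SD of the 3 lists in black; pileup, width and input are over reproducible regions. Peak density on chromosome 5, at 61.3 ± 1.89 per Mb, stands above the other chromosomes, while pileup and input differ mostly between lists and width hardly differs.

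The share of peaks that were found again in the other lists was similar on both sides. Of the joined regions on chromosome 5, 47.1% held a peak of every list, against a background of 45.7% on chromosomes 1 to 4. By list, 64.6%, 68.3% and 69.4% of the peaks of chromosome 5 lay in reproducible regions in lists 1, 2 and 3, against 63.8%, 68.7% and 66.8% on chromosomes 1 to 4. The mean difference was 0.971 ± 1.50 percentage points (SD, n = 3), higher in 2 of 3 lists, with p = 0.5 in the exact sign-flip permutation test. The difference was smaller than the spread between lists. A further 890 joined regions of chromosome 5 held peaks of 2 lists and 1801 of a single list. Their median pileups were 10 and 8 fragments, against 20.7 fragments in the reproducible regions, each taken as the mean over the lists present. Of the regions just outside the set, those in 2 lists, 1 of 890 had a mean fold enrichment of at least 10. On chromosomes 1 to 4 it was 3 of 6457. Median pileups there were close to those of chromosome 5, at 9.5, 7 and 20 fragments for regions in 2 lists, 1 list and all lists.

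The excess of regions over chromosomes 1 to 4 pooled was seen at moderate and high pileups but not at the lowest. Regions were sorted by mean pileup over the lists into fixed classes. Below 10 fragments, chromosome 5 held 2.17 regions per Mb, against 2.54 on chromosomes 1 to 4, a ratio of 0.857. From 10 to 20 fragments it held 16.9 per Mb, against 13.2, and from 20 to 40 fragments 11.7 per Mb, against 9.30. The ratios of these classes were 1.28 and 1.26. From 40 to 80 fragments it held 6.41 per Mb, against 4.66, a ratio of 1.37. At 80 fragments or more it held 2.91 per Mb, against 1.96, a ratio of 1.48. In this highest class chromosomes 1, 2, 3 and 4 held 1.85, 1.92, 2.07 and 2.16 regions per Mb, so chromosome 5 was above each. In the lowest class they held 2.49, 2.59, 3.09 and 1.87, and chromosome 5 fell between them. The lists give 1 set of regions, so these ratios have no test. The class limits are fixed pileups, and both pileup and input level were slightly higher on chromosome 5, as given below. A shift in pileup by itself moves regions from the lower to the higher classes. Its part in these ratios was not tested.

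Levels at the regions differed little from those of the longer chromosomes. The median pileup of chromosome 5 regions was 24, 21.5 and 18 fragments in lists 1, 2 and 3, against 23, 20 and 17 fragments on chromosomes 1 to 4. Within each list chromosome 5 was slightly higher, by a ratio of 1.04 to 1.075. The mean ratio was 1.06, higher in 3 of 3 lists (exact sign-flip permutation test, p = 0.25). Between lists the same median differed more, by 6 fragments from list 1 to list 3. Mean pileup gave a ratio of 1.06 as well, from 35.1, 32.6 and 27.7 fragments on chromosome 5 and 33.1, 30.7 and 26.1 on chromosomes 1 to 4. The top pileup reached 262, 261 and 223 fragments on chromosome 5 in lists 1, 2 and 3, against 271, 260 and 239 on chromosomes 1 to 4.

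The input level was higher on chromosome 5 as well. Its mean over the regions was 2.47, 2.33 and 1.84 fragments in lists 1, 2 and 3, against 2.28, 2.16 and 1.68 fragments on chromosomes 1 to 4. The ratio of the means was 1.09 and that of the medians 1.07, each above 1 in 3 of 3 lists (exact sign-flip permutation test, p = 0.25 for both). Chromosome 4 was closest, with mean input levels of 2.39, 2.26 and 1.77 fragments. Each list has a lowest input level that many peaks share, at 0.948, 0.924 and 0.744 fragments. Few regions of chromosome 5 were at that level, 1.07 ± 0.355% over the lists, against 4.11 ± 0.618% on chromosomes 1 to 4 (SD, n = 3) and 1.34 ± 0.449% on chromosome 4. Pileup and input thus both stood higher on chromosome 5, and fold enrichment, their quotient, did not. Its median was 7.52, 7.17 and 7.05 in lists 1, 2 and 3, against 7.60, 7.17 and 7.13 on chromosomes 1 to 4. The mean ratio was 0.993, with chromosome 5 higher in 1 of 3 lists (exact sign-flip permutation test, p = 0.5). All 3 lists gave 10 or more at 578 regions of chromosome 5, or 24.1%, against a background of 23.1% on chromosomes 1 to 4. Whether the higher input level has a part in the higher count of regions was not tested.

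Widths were nearly the same. The median peak width at chromosome 5 regions was 434, 416 and 397 bp in lists 1, 2 and 3, against 432, 414 and 395 bp on chromosomes 1 to 4. The median region of chromosome 5 was 536 bp wide, with quartiles at 415 and 732 bp, against 537 bp with quartiles at 416 and 725 bp on chromosomes 1 to 4. On chromosome 5 they ranged from 240 to 3610 bp, and 10.2% were over 1000 bp wide, against 9.08% on chromosomes 1 to 4. In all, the regions covered 2.49% of chromosome 5, against 1.95% of chromosomes 1 to 4. Summits of the lists lay close together, with a median range over the 3 lists of 43.5 bp on chromosome 5 and 42 bp on chromosomes 1 to 4. More than 3 peaks had been joined into 149 of the chromosome 5 regions, or 6.21%, against 5.59%.

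Along chromosome 5 the regions were far from even. Its 59 full 1-Mb windows held 4 to 91 reproducible regions, with a median of 36 and an interquartile range of 27.5 to 52.5. The 547 windows of chromosomes 1 to 4 held 0 to 88, with a median of 30 and an interquartile range of 17 to 44. Sparse windows were fewer on chromosome 5: 11 of 59, or 18.6%, held at most 20 regions, against 31.4% on chromosomes 1 to 4. Dense ones were more common: 9 of 59, or 15.3%, held at least 60, against 7.86%. On chromosomes 1, 2, 3 and 4 alone, 34.2%, 31.5%, 29.7% and 27.5% held at most 20. At least 60 were held by 9.18%, 4.03%, 8.11% and 11.0%. A higher density of regions by itself brings fewer sparse and more dense windows, and whether the shares go beyond it was not tested. The coefficient of variation over windows was 0.512 on chromosome 5 and 0.584 on chromosomes 1 to 4. The 10 densest windows of chromosome 5 held 745 regions, or 31.2% of those in full windows, and the 10 sparsest held 127, or 5.32%. The lists gave the windows much the same order. Spearman's rho of peak counts over the 59 windows was 0.985 for lists 1 and 2, 0.969 for lists 1 and 3 and 0.968 for lists 2 and 3. The windows of a chromosome share their libraries, and neighbouring windows are not independent.

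**Figure D2:**
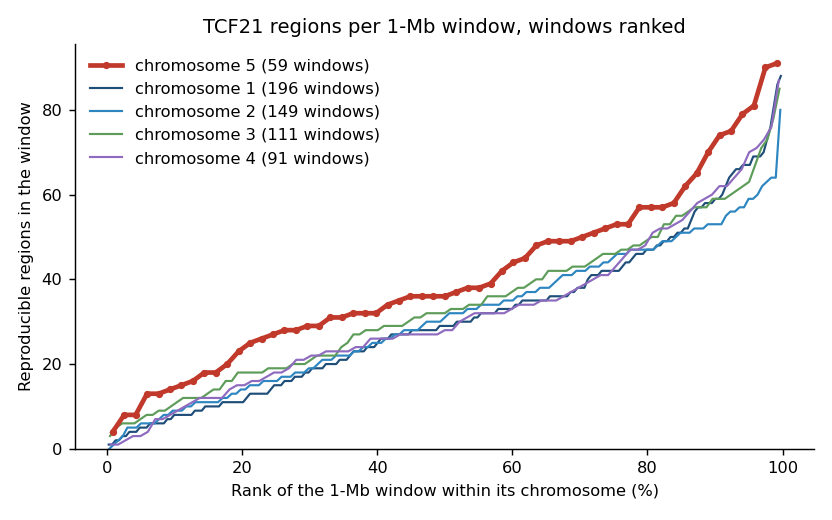
Reproducible TCF21 regions in each full 1-Mb window, with windows ranked from sparsest to densest within their chromosome (x axis, percent) for chromosomes 5, 1, 2, 3 and 4. The curve of chromosome 5 has a median of 36 regions, against 29, 31, 32 and 28 on chromosomes 1, 2, 3 and 4, and its densest window holds 91.

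The densest window was chromosome 5, 13000001 to 14000000. It held 91 regions and 147, 141 and 130 peaks in lists 1, 2 and 3. The window at 28000001 to 29000000 followed with 90 regions and 138, 131 and 125 peaks, and its neighbour at 27000001 to 28000000 held 79 regions. Another pair of neighbours lay further along, at 51000001 to 52000000 with 81 regions and at 52000001 to 53000000 with 75. The window with 91 regions had more peaks than that with 90 in every list. The sparsest window, at 20000001 to 21000000, held 4 regions and 9, 8 and 9 peaks. Windows at 6000001 to 7000000 and at 32000001 to 33000000 held 8 regions each, and those at 4000001 to 5000000 and 5000001 to 6000000 held 13 each. The share of joined regions held by all lists was 24.2% to 35.1% in the sparse windows, against 48.4% to 55.6% in the 5 densest. Windows were ranked by the count of those same regions, which favours a difference in this direction, so no conclusion is drawn from it.

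By 10-Mb segments, density rose and fell along the chromosome. The segments starting at 1, 10000001, 20000001, 30000001, 40000001 and 50000001 held 30.2, 50.6, 47.0, 29.2, 32.4 and 51.5 regions per Mb. In peaks per Mb the same segments had 46.6 ± 0.929, 76.5 ± 2.41, 70.9 ± 3.41, 45.3 ± 1.84, 52.5 ± 1.69 and 76.1 ± 2.15 (SD, n = 3). The 3 segments with the most regions per Mb are called dense here and the other 3 sparse. The regions are made from these same peaks, so the gap in peak density between them is not separate support. The SDs measure the spread between lists and not that between segments. Median pileup was highest in the sparse segment starting at 30000001, with 25.5, 23 and 19 fragments in lists 1, 2 and 3. In each list it lay above every other segment there, which reached at most 24.5, 22 and 18 fragments. Over the 59 windows of 1 Mb, region count and median pileup had a Spearman's rho of 0.325, 0.225 and 0.267 in lists 1, 2 and 3, a description over windows that share a library. Regions with a mean pileup of at least 100 fragments numbered 8, 23, 20, 12, 14 and 24 in the 6 segments. The segments held 302, 506, 470, 292, 324 and 504 regions in all. The higher numbers in the 3 dense segments thus went with more regions there and are not read as an enrichment of strong ones.

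The input level varied along the chromosome less than the counts did. It is given here relative to the median of the same list over the regions of chromosomes 1 to 4. In the 6 segments its median was 1.076, 1.18, 1.09, 1.09, 1.06 and 1.04 times that level, averaged over the lists, with SDs of 0.0393 to 0.0849. As means over the lists, the densest 5 windows had values of 1.096 to 1.25 and the sparsest 5 had 0.829 to 1.16. By these means 4 of the sparse windows, at 0.829 to 1.045, lay below all 5 dense ones. Single lists did not all follow. The sparse window at 4000001 to 5000000 had 1.22 in list 1, as high as any dense window there. That at 32000001 to 33000000 had 1.18 in list 3, where only the dense window at 13000001 to 14000000 was higher. The sparse values are medians of 4 to 13 regions, with SDs over the lists of up to 0.163, so no clean split is read from them. The other sparse window, at 6000001 to 7000000, had 1.16. Over the 59 windows, region count and median input level had a Spearman's rho of 0.314, 0.347 and 0.429 in lists 1, 2 and 3. These are descriptions over windows that share a library and the input sample behind it.

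**Figure D3:**
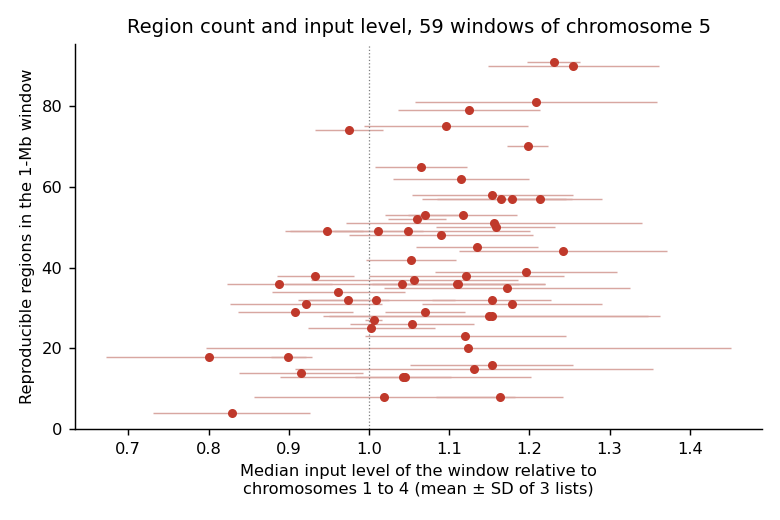
Reproducible regions in each of the 59 full 1-Mb windows of chromosome 5 (y axis) against the window's median input level relative to chromosomes 1 to 4 (x axis, mean ± SD of the 3 lists). The 18 windows with at least 50 regions lie between 0.975 and 1.25, while the 41 with fewer reach down to 0.801 and up to 1.24.

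Neighbouring regions stood closer together on chromosome 5, as a higher density of regions by itself brings. The median gap from a region to the next was 8.96 kb, against 10.4 kb on chromosomes 1 to 4, a ratio of 0.860. Chromosomes 1, 2, 3 and 4 had medians of 10.6, 10.9, 10.2 and 9.29 kb, so the difference from chromosome 4 was small. The upper quartile of the gap was 25.1 kb on chromosome 5, against 31.7 kb. Another region lay within 10 kb of 1778 of the 2398 regions, or 74.1%, against a background of 70.4% on chromosomes 1 to 4. Chromosome 4, at 73.6%, was within 0.593 percentage points of chromosome 5. Without peaks of list 3 the difference from chromosomes 1 to 4 was 4.81 percentage points, and with only peaks of a q-value of at most 1e-05 it was 2.29. Regions more than 50 kb from any other numbered 84, or 3.50%, against 4.90%.

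**Figure D4:**
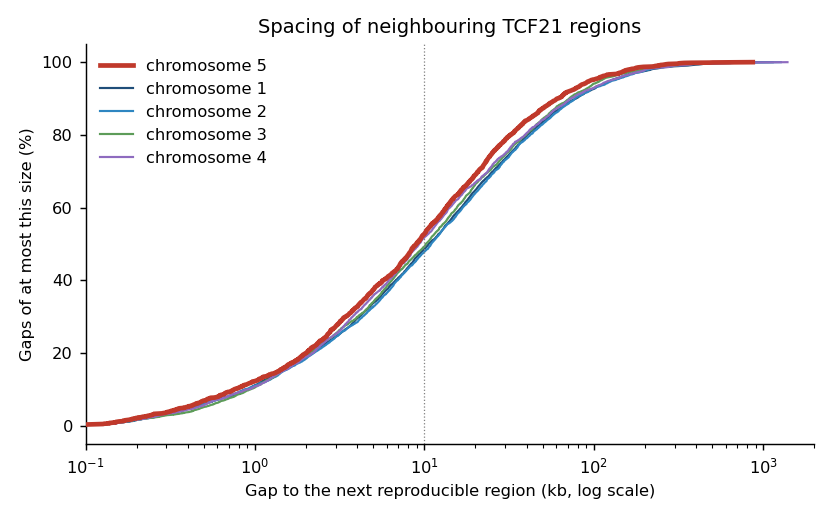
Cumulative share of gaps between neighbouring reproducible regions (y axis, percent) by gap size (x axis, kb, log scale) for chromosomes 5, 1, 2, 3 and 4, with a dotted line at 10 kb. The curve of chromosome 5 passes its quartiles at 2.67, 8.96 and 25.1 kb, against 2.95, 9.29 and 30.1 kb on chromosome 4, the nearest of the others.

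Clusters were more frequent. A higher region density by itself raises the number of dense windows, near neighbours and chains. Whether clustering on chromosome 5 goes beyond its density was not tested. Of the 597 full 100-kb windows of chromosome 5, 67 held at least 10 regions, or 11.2%, against a background of 5.58% on chromosomes 1 to 4. Chromosomes 1, 2, 3 and 4 had 5.61%, 4.88%, 5.76% and 6.47%. These windows held 829 regions, or 34.6% of those on chromosome 5, against 22.4%. The size of this difference depended on where windows begin: with windows shifted by 50 kb the shares were 9.21% and 5.97%. With only peaks of a q-value of at most 1e-05 the difference fell to 1.48 percentage points, and with a reciprocal overlap of 50% to 3.23, against 5.64 as first counted. Empty 100-kb windows were fewer, 17.1% on chromosome 5 and 23.7% on chromosomes 1 to 4.

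The densest 100-kb windows of chromosomes 1, 2, 3 and 4 held 31, 24, 28 and 23 regions, more than any on chromosome 5. The 5 densest 100-kb windows of chromosome 5 held 18 to 20 regions. The window at 17400001 to 17500000 held 20 regions and 24, 23 and 20 peaks in lists 1, 2 and 3, and its strongest region is among the most enriched of the chromosome. The window at 28300001 to 28400000 held 19 regions, the strongest at 28352085 to 28352846 with pileups of 115, 113 and 100 fragments. Windows at 13900001 to 14000000, 19400001 to 19500000 and 22000001 to 22100000 held 18 regions each. Their strongest regions had pileups of 178, 166 and 172 fragments, of 110, 83 and 69 fragments, and of 87, 101 and 81 fragments in lists 1, 2 and 3. The next strongest regions of these 5 windows had mean pileups of 126, 70.3, 103, 82.7 and 82.3 fragments, in the order given. The median pileup in these windows was 21.3 to 29.7 fragments over the lists. The strongest of 18 to 20 regions lie far above a median by their choice. Over all reproducible regions of chromosome 5 the 90th percentile of mean pileup was 69.1 fragments, so these values are not read as a trait of clusters.

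Regions were also chained where gaps were at most 10 kb, which does not depend on window borders but does depend on density. Chromosome 5 had 15 chains of at least 10 regions, or 2.51 per 10 Mb, against 84 on chromosomes 1 to 4, or 1.53 per 10 Mb. Chromosomes 1, 2, 3 and 4 had 1.58, 1.00, 1.98 and 1.75 per 10 Mb. The chains of chromosome 5 held 9.05% of its regions, against 6.66%. The largest chain ran from 28352085 to 28453162, 101 kb with 26 regions, and the next from 28157363 to 28263608, 106 kb with 24 regions. Both lie in the second densest 1-Mb window. Chains of 17 regions ran from 22036207 to 22106094 and from 51918581 to 51989824. On chromosomes 1, 2, 3 and 4 the largest chains held 33, 32, 27 and 18 regions. At the other end, 620 regions of chromosome 5, or 25.9%, had no neighbour within 10 kb, against 29.6%.

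Regions in clusters had somewhat higher pileups than isolated ones, on chromosome 5 as on the others. In 100-kb windows with at least 10 regions the median pileup was 26, 24 and 19 fragments in lists 1, 2 and 3. More than 50 kb from any neighbour it was 19, 16 and 14 fragments. The input level moved with it, at 1.198 ± 0.0253 and 0.906 ± 0.0878 times the level of chromosomes 1 to 4 (SD, n = 3), and its part in the difference was not tested. Chromosomes 1 to 4 showed the same order, with 25, 23 and 19 fragments in dense windows and 18, 16 and 13.5 fragments for isolated regions.

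The strongest binding on chromosome 5 included a pair of regions less than 4 kb apart. The region at 23679717 to 23681279 had the highest mean pileup, with 262, 261 and 223 fragments in lists 1, 2 and 3. Its summits lay within 17 bp, and its fold enrichments of 85.7, 54.7 and 73.3 also gave the highest mean on the chromosome, 71.2 ± 15.6 (SD, n = 3). By mean pileup it ranked 7 among all 37420 reproducible regions of the series. The region at 23685036 to 23686161 had pileups of 234, 195 and 189 fragments and fold enrichments of 89.7, 72.0 and 39.8. Both ranked in the first 3 by either measure, in a 100-kb window of 11 regions. Of the 100 regions of the series with the highest mean pileup, 8 lay on chromosome 5, which held 6.41% of all regions, and 42 on chromosomes 1 to 4, which held 46.4%.

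The region at 30054168 to 30055287 came between them, with pileups of 244, 226 and 206 fragments and a mean fold enrichment of 67.4 ± 18.9. The region at 28076203 to 28077886 had nearly equal pileups, 195, 194 and 195 fragments, yet fold enrichments of 28.5, 70.3 and 67.3. The low value in list 1 went with an input level of 5.88 fragments there, against 1.77 and 1.91 in the other lists. List 1 was also the one with a high input level, 6.72 fragments, at 22867769 to 22868670, with pileups of 188, 207 and 162 fragments and fold enrichments of 24.5, 75.4 and 58.98. At 58268350 to 58269441 pileups were 194, 187 and 174 fragments and fold enrichments 28.3, 85.2 and 69.8. At these 3 regions list 1 gave the lowest fold enrichment with the highest input level. Fold enrichment has the input level in its divisor, so at similar pileups the list with the highest input gives the lowest value. That list was list 2 at 23679717 to 23681279, 30054168 to 30055287 and 36225822 to 36227673, with input levels of 3.79, 3.96 and 4.27 fragments. It was list 3 at 23685036 to 23686161, with 3.77 fragments.

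The remaining regions among the 8 with the highest pileup had the smallest SDs of fold enrichment, while their pileups were not the closest between lists. The region at 36225822 to 36227673 had pileups of 204, 199 and 173 fragments, and its fold enrichment averaged 49.4 ± 10.4. At 12639750 to 12640908 pileups were 195, 195 and 162 fragments and fold enrichment averaged 56.3 ± 7.04, and its summits lay within 12 bp. By fold enrichment the first 8 shared 6 regions with the first 8 by pileup, and the others were at 17489797 to 17490921 and 54558875 to 54559765. The site at 17489797 to 17490921, in the densest 100-kb window, had pileups of 191, 175 and 156 fragments with summits within 3 bp. The region at 54558875 to 54559765 had only 124, 141 and 125 fragments, rank 37 by pileup, and an input level of 0.771 ± 0.0409 times that of chromosomes 1 to 4. The regions ranked 4 to 8 by pileup had close means, 184 to 195 fragments, and the highest of them was another one in each list.

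**Figure D5:**
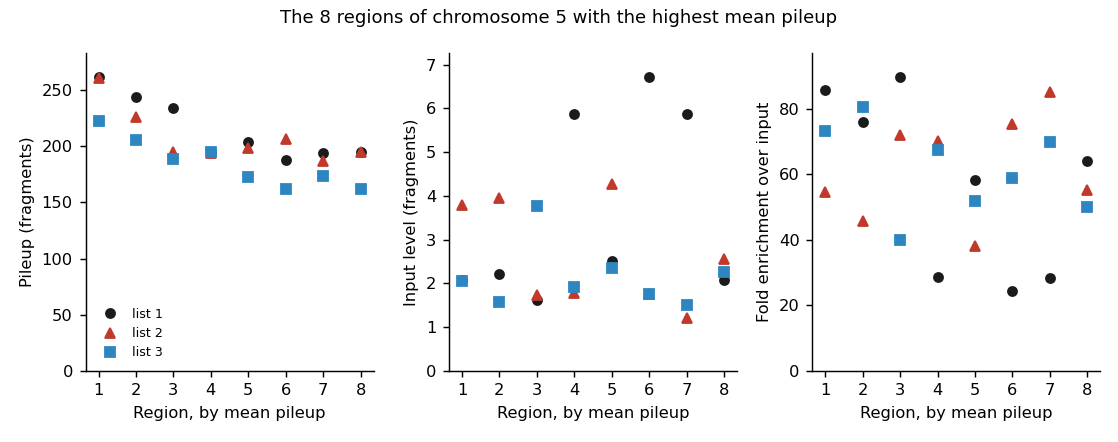
Pileup, input level and fold enrichment in lists 1, 2 and 3 at the 8 chromosome 5 regions with the highest mean pileup, numbered from the highest (x axis). Pileups of a region stay within a ratio of 1.28 between lists, while at regions 4, 6 and 7 list 1 has the highest input level, 5.88 to 6.72 fragments, and the lowest fold enrichment. At regions 1, 2 and 5 list 2 has both, and at region 3 list 3 has both.

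Pileup was steadier between lists than fold enrichment over the whole chromosome. Across the 2398 regions Spearman's rho between 2 lists was 0.896 ± 0.000537 for pileup, 0.774 ± 0.00642 for fold enrichment, 0.660 ± 0.00809 for width and 0.239 ± 0.0242 for the input level (SD over 3 pairs of lists). Of the 20 regions with the highest pileup in a list, 16 were among the highest 20 of every list, against 4 by fold enrichment. Wider peaks had higher pileups, with rho of 0.669, 0.658 and 0.678 in lists 1, 2 and 3. These values run across regions of the same libraries and are descriptions. The ratio of the highest to the lowest pileup of a region had a median of 1.43. Among regions with a mean of at least 50 fragments it was largest at 43712190 to 43712854, with 88, 67 and 42 fragments in lists 1, 2 and 3. Next came 23673144 to 23673795 with 75, 60 and 38 fragments and 19295595 to 19296064 with 63, 56 and 32 fragments. List 1 was highest and list 3 lowest at all 3.

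The widest region, at 13962209 to 13965818, was 3610 bp long and joined 7 peaks. A peak of list 1 spanned all of it, while the strongest peaks of lists 2 and 3 there were 1994 and 1694 bp wide. It was strong as well as wide, with pileups of 178, 166 and 172 fragments and a fold enrichment of 50.8 ± 17.7. It lay in the densest 1-Mb window of the chromosome. The next widest, at 24321513 to 24324227 with 2715 bp and at 19044991 to 19047671 with 2681 bp, had mean pileups of 69.0 ± 16.4 and 103 ± 12.5 fragments. Summits of the lists were 660 bp apart at 24321513 to 24324227 and within 16 bp at 19044991 to 19047671.

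The most isolated regions ranged from strong to weak. The region at 20573676 to 20574160 stood 331271 bp from its neighbour on the left and 502018 bp from that on the right, within the sparsest 1-Mb window. It had pileups of 66, 65 and 60 fragments, fold enrichments of 19.0, 29.0 and 26.6, and summits within 2 bp. The region at 19814213 to 19814654, with 225 kb to its nearest neighbour, had pileups of 22, 21 and 14 fragments. The region at 4140156 to 4140493, with 172 kb, had 11, 8 and 8 fragments and a fold enrichment of 3.07 ± 0.677. Long stretches held no reproducible region at all. The longest ran from 5566154 to 6431035, 865 kb, and held 1, 6 and 1 peaks in lists 1, 2 and 3. The next ran from 2077634 to 2699925, 622 kb, with 6, 2 and 8 peaks, then one from 20574161 to 21076178, 502 kb, with 2, 1 and 4 peaks. Chromosome 5 thus had 3 gaps over 500 kb, or 0.502 per 10 Mb, against 58 on chromosomes 1 to 4, or 1.06 per 10 Mb.

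The highest input levels among the regions were moderate. At 52517060 to 52517495 the input level was 2.44, 2.75 and 3 times that of chromosomes 1 to 4 in lists 1, 2 and 3, with pileups of 13, 27 and 13 fragments and a fold enrichment of 3.14 ± 1.25. At 13038101 to 13038473 it was 2.85, 3.67 and 1.46 times, with pileups of 34, 44 and 33 fragments. At 54235537 to 54236538 it was 1.63, 2.29 and 4 times, with pileups of 105, 122 and 112 fragments and a fold enrichment of 21.2 ± 4.50. Lists disagreed on the input level at the last 2 of these, where the highest value came from list 2 and list 3.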

How the data were processed

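Peak lists of 3 TCF21_IP samples were analysed; 3 input DNA samples enter only as the control behind the deposited values. Tools listed in the submitters' processing notes, without roles, are MACS2, HOMER, bedtools, STAR 2.5.3a and Trimmomatic 0.36. Per the file headers the lists are MACS2 tables, 1 per immunoprecipitation. Pileup is a deposited signal in whole fragments (100% of chromosome 5 values), and fold enrichment is a deposited ratio. Significance is deposited as −log10 of p-values and q-values. The sources used here do not give the calling threshold, control library or build; the highest p-value on chromosome 5 was 0.00999. Positions are 1-based as deposited.

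Of several peaks of a list in a region, the strongest by fold enrichment was used. The Poisson p-value recomputed from pileup and input level matched the deposited one within 1% plus 0.01 (−log10) for 99.9% of chromosome 5 peaks in each list. Chromosomes were compared within lists by the log2 ratio (for shares, the difference), with an exact two-sided sign-flip permutation test over lists (scipy 1.17.1, Python 3.11.15). Joining and ratios were checked on simulated lists of evenly spaced sites, which does not test the joining of close neighbours. Depth is unknown, so no counting interval was computed. Named items are the 8 highest by mean pileup and by fold enrichment, the 5 densest and sparsest 1-Mb windows, the 5 densest 100-kb windows, and the 3 most extreme in width, isolation, input and pileup ratio; chains, gaps and pileup classes were added after the values were seen. The members and all lists were chosen with earlier results of these data known.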

Additional observations from a re-analysis of the deposited data

How the results depend on the processing

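The mean ratios of peak density, median pileup and median input level over the lists stayed above 1 under every alternative run. They ranged over 1.18 to 1.28, 1.02 to 1.07 and 1.03 to 1.18. The lowest single list had a pileup ratio of 1 with q up to 0.05 and with a reciprocal overlap of 50%. It was also 1 with regions of at least 2 lists and against chromosome 4 alone. For the input level the lowest list came to 1 without list 2, with regions of at least 2 lists and against chromosome 4 alone. The difference in the share of reproducible peaks stayed positive as a mean over the lists, at 0.358 to 1.47 percentage points. Single lists did not all follow: the lowest was -0.396 points as first counted and -1.48 against chromosome 3 alone. The sign-flip test cannot give a p below 0.25 with 3 lists or 0.5 with 2, so it says nothing about stability. The ratio of median widths was 0.999 without list 3 and 0.998 against chromosome 1 alone, and that of median fold enrichments was 1.01 against chromosome 2 alone; both lie so near 1 that their direction is not resolved. Against chromosomes 1, 2 and 3 alone the ratio of region densities was 1.30, 1.296 and 1.18, and it was 1.21 over occupied windows. The difference in the share of regions within 10 kb came to 2.81 percentage points for peaks with q up to 0.05, 2.29 with q up to 1e-05, 4.47, 4.86 and 0.593 against chromosomes 1, 2 and 4 alone, 4.66 at 5 kb and 2.32 at 20 kb. That in dense 100-kb windows, 5.64 points, was 1.48 with q up to 1e-05, 4.75 against chromosome 4 alone, 3.23 with a reciprocal overlap of 50%, 4.49 for 5 regions in 50 kb and 3.24 with windows shifted by 50 kb. The ratio of median spacing was 0.818 with q up to 1e-05, 0.818 against chromosome 2 and 0.964 against chromosome 4. The ratio of window spread was 0.818, 0.928, 0.951 and 0.847 against chromosomes 1, 2, 3 and 4 and 0.927 in 500-kb windows. The cause of these moves was not tested, but a q-value limit leaves fewer peaks. Leaving out each list gave 1.26 to 1.28 for region density, 3.36 to 4.81 and 5.82 to 7.24 points for the shares, 0.838 to 0.885 for spacing and 0.868 to 0.884 for window spread. Means in place of medians for pileup, width and fold enrichment were added after the data were seen and gave 1.06, 1.02 and 0.996.

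No paired analysis was possible because input samples have no values of their own in the lists, whose numbers could not be tied to replicates. Depth is unknown and was not varied, and the smallest pileups on chromosome 5, 3 or 4 fragments, make weak peaks coarse.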

Other observations

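A peak of list 3 alone, at chromosome 5, 57827298 to 57827506, had a pileup of 132 fragments over 209 bp. Its input level was 43.7 fragments and its fold enrichment 2.97, with a deposited −log10 q of 24.1. Every other peak found on chromosome 5 in a single list had a pileup of at most 20 fragments, and the next highest input level at any peak of the chromosome was 8.40 fragments, in list 1. Lists 1 and 2 had no overlapping peak there. The peak was singled out after its values were seen.

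Set against the number of genes, the order of the chromosomes was another one. By the RefSeq table of GRCg7b, chromosome 5 carries 1036 protein-coding genes and chromosomes 1 to 4 carry 6348. That gives 2.31 reproducible regions per gene on chromosome 5 and 2.74 on chromosomes 1 to 4, with 2.55, 3.09, 2.96 and 2.44 on chromosomes 1, 2, 3 and 4. Chromosome 5 thus had more regions per Mb than each of them and fewer per gene. The gene counts come from GRCg7b, and no test was made. No build is named for the lists, and their scaffold names point to another assembly.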
